A study of Mus musculus with 10 samples.

Results

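Mural cells are the pericytes of capillaries and the smooth muscle cells of larger vessels, and 10 of their genes were followed in mouse tumours injected with an RNA that activates RIG-I. The genes were picked by name from the deposited count table as a pericyte and mural cell set, namely Rgs5, Rgs4, Pdgfrb, Cspg4, Kcnj8, Abcc9, Notch3, Des, Acta2 and Mcam. All 10 were present among the 18603 genes of the table, and all 10 passed the filter on low counts that left 15883 genes to test.

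The tumours were grown from RENCA, a mouse kidney cancer cell line, under the skin of female Balb/c mice. In 5 mice the tumours were injected with SLR14, a hairpin RNA whose triphosphate end is bound by the cytosolic RNA sensor RIG-I, carried by lipid nanoparticles in 50 µL of PBS. In 5 other mice the tumours were injected with PBS alone, so effects of the RNA and of its carrier cannot be told apart. Injections began at a tumour size of 100 to 150 mm3, were given 3 times at intervals of 48 h, and the tumours were taken 24 h after the last. The labels give no age, and each library is 1 whole tumour that mixes cancer, vascular, immune and connective tissue cells. Fewer cells of a type and less RNA per cell cannot be told apart in such samples.

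Pericytes wrap the endothelial tube and share its basement membrane. Endothelial cells release PDGF-B, which recruits pericytes through the receptor Pdgfrb, and Notch3 on mural cells receives signals from endothelial Notch ligands. In tumours the pericyte coat is often loose and uneven. Rgs5 is a widely used marker of tumour pericytes, and Kcnj8 and Abcc9 encode the pore and the regulatory subunit of the ATP-sensitive potassium channel of vascular mural cells. None of the 10 genes is made by mural cells alone. Acta2 is also made by activated fibroblasts, Des by skeletal muscle, Cspg4 by glial precursors and many cancer cells, Mcam by endothelium, and Pdgfrb by fibroblasts.

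After SLR14 the fitted ratios to PBS ran from 0.514 to 1.27. Rgs5 fell to 0.514 of its PBS level. Without passing the test, Rgs4, Kcnj8, Abcc9, Notch3 and Pdgfrb had fitted ratios of 0.533, 0.540, 0.619, 0.750 and 0.817. Des, Mcam, Acta2 and Cspg4, at 0.951, 0.972, 1.04 and 1.27, did not pass either. Differences between the genes were not tested. With edgeR's quasi-likelihood test and Benjamini-Hochberg adjustment over all tested genes, 1 of the 10 genes fell, 0 rose and 9 did not reach an adjusted p of 0.05. Over all 15883 genes 0.963% passed, 0.674% higher and 0.29% lower in SLR14 tumours. At an unadjusted p under 0.05 there were 4 of the 10 genes, all lower in SLR14 tumours, where the share over all tested genes was 10.8%, or 5.43% for lower genes. The log2 fold change (SLR14 over PBS) was negative for 8 of the 10 with a median of -0.35, and over all tested genes it was negative for 52.0% with a median of -0.01. The 10 genes were chosen with earlier results of these data known, so these shares describe the set and do not test it.

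The start regions of the 4 genes with the smallest p are shown, since they are the ones that differed most and form neighbouring pairs. Rgs5 and Rgs4 lie next to each other on chromosome 1, and Kcnj8 and Abcc9 on chromosome 6, with 0 protein-coding genes starting between the members of either pair in RefSeq. Each sequence is the 250 bases before the RefSeq start site (build GRCm38.p6, 5′ to 3′ in the direction of the gene). The windows are chr1:169655251-169655500 on the plus strand for Rgs5, and on the minus strand chr1:169747643-169747892 for Rgs4, chr6:142571615-142571864 for Kcnj8 and chr6:142702275-142702524 for Abcc9. Capitals mark GGGCGG, the GC box, and GAAACT, part of the interferon response element, on either strand.
Rgs5: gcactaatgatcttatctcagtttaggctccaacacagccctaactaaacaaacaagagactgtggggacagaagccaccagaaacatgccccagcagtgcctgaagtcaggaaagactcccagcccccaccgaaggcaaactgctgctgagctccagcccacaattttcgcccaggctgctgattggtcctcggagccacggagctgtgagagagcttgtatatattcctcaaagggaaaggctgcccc
Rgs4: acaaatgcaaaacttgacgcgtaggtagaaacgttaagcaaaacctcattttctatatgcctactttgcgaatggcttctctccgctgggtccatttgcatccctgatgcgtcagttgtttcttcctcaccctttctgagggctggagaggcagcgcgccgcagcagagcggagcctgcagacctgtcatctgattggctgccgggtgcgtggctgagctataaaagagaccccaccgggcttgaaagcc
Kcnj8: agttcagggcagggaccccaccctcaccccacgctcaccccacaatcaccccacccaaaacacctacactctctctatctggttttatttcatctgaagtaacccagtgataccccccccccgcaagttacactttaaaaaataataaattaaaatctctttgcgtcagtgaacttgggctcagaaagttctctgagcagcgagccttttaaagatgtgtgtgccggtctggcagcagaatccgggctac
Abcc9: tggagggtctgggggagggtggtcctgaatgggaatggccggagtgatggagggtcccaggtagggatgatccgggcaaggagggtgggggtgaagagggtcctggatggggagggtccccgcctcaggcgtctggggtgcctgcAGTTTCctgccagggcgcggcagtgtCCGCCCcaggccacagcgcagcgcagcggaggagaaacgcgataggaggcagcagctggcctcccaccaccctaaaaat

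The GC box letters occurred in the windows of 5 of the 9 genes with a RefSeq window here, which were Abcc9, Notch3, Cspg4, Mcam and Des, and in 32.7% of all 32851 windows of this length. They did not occur in those of Rgs5, Rgs4, Kcnj8 and Acta2. G and C made up 53.6% of the Rgs5 and Rgs4 windows, 49.2% of the Kcnj8 window and 66.8% of the Abcc9 window, with a median of 52.4% over all windows. The interferon-stimulated response element, searched as GAAA, 2 bases of any kind and GAAA, matched in 0 of the 9 windows and in 2.98% of all. Its shorter part GAAACT, searched only after that result was seen, occurred in 1 of the 9 windows, that of Abcc9, where its reverse complement starts 105 bases before the start site, and in 13.5% of all windows. Searches on both strands for the strict CArG box (CC, 6 bases that are each A or T, and GG) and for GTGGGAA, the core bound by the Notch effector RBPJ, found matches in 0 of the 9 windows, where the shares over all windows were 1.47% and 5.42%. With up to 1 G or C allowed among the 6 inner bases, a search added after the strict result was seen, the CArG pattern matched in 1 of the 9 windows, that of Acta2, starting 84 and 34 bases before the start site, and in 8.59% of all windows. No match overlapped another in the windows shown.

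Rgs5 (ENSMUSG00000026678), a GTPase-activating protein that shortens G protein signalling, had 34.5, 47.6, 30.8, 45.9 and 48.7 CPM in SLR14 tumours 1 to 5, against 73.3, 82.4, 89.5, 81.4 and 76.4 CPM in PBS tumours 1 to 5. CPM here are counts scaled to the library size with TMM factors. The highest SLR14 tumour lay well under the lowest PBS tumour, so the groups did not overlap, a gap seen in 1 of the 10 genes and in 3.24% of all tested genes, or 1.32% with SLR14 tumours lower. The log2 fold change was -0.96 (SE 0.13, edgeR adjusted p = 0.00315). The change stands on 799 to 2721 reads per tumour, and Rgs5 had the 24th smallest p of all genes and the 10th among the 46 that fell. It passed in all 22 alternatives run, with log2 fold changes between -1.07 and -0.87.

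**Figure D1:**
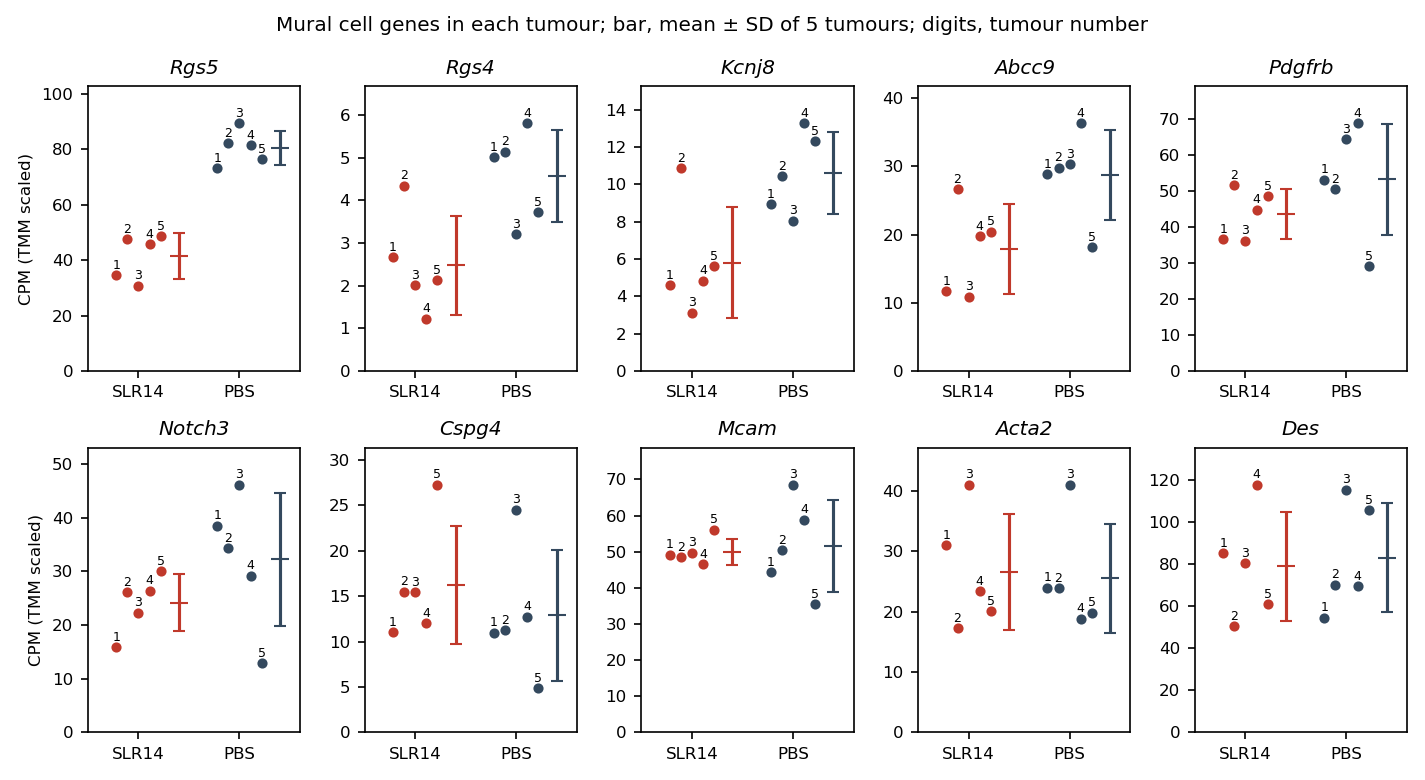
Level of each of the 10 mural cell genes in CPM (library-scaled counts; linear axes from 0) in the 5 SLR14 and 5 PBS tumours, with the tumour number at each point and the mean ± SD beside it. The SLR14 tumours sit between 30.8 and 48.7 CPM for Rgs5, all under the PBS tumours, while the groups overlap for the other 9 genes.

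Its relative and neighbour Rgs4 (ENSMUSG00000038530), another member of the same RGS subfamily, was measured at a far lower level. It had 2.67, 4.35, 2.01, 1.22 and 2.13 CPM in SLR14 tumours, against 5.02, 5.14, 3.20, 5.81 and 3.72 CPM in PBS tumours. In 4 of 5 SLR14 tumours the level was under the lowest PBS tumour, and SLR14 2 lay within the PBS range. The log2 fold change was -0.91 (SE 0.28, edgeR adjusted p = 0.219), from 24 to 194 reads per tumour. Without SLR14 2 it was -1.18 and passed (edgeR adjusted p = 0.0496). Of the 10 fits that left out 1 tumour, Rgs4 passed in this 1 (edgeR adjusted p up to 0.449, log2 fold changes of -1.18 to -0.74).

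Kcnj8 (ENSMUSG00000030247), the Kir6.1 pore subunit, had 4.59, 10.9, 3.12, 4.84 and 5.62 CPM in SLR14 tumours, against 8.96, 10.4, 8.07, 13.3 and 12.3 CPM in PBS tumours. Again 4 of 5 SLR14 tumours were under the lowest PBS tumour, and SLR14 2 was within the PBS range. The log2 fold change was -0.89 (SE 0.28, edgeR adjusted p = 0.213), and without SLR14 2 it was -1.22 (edgeR adjusted p = 0.0133). Kcnj8 too passed in 1 of the 10 fits that left out 1 tumour (edgeR adjusted p up to 0.419, log2 fold changes of -1.22 to -0.72).

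Abcc9 (ENSMUSG00000030249), the SUR2 subunit that assembles with Kir6.1, had 11.7, 26.7, 10.9, 19.7 and 20.4 CPM in SLR14 tumours, against 28.9, 29.8, 30.3, 36.3 and 18.1 CPM in PBS tumours. The groups overlapped. In 2 of 5 SLR14 tumours the level was under the lowest PBS tumour, PBS 5, and 4 PBS tumours lay above the highest SLR14 tumour, SLR14 2. The log2 fold change was -0.69 (SE 0.24, edgeR adjusted p = 0.293). With PBS 5 and SLR14 2 both left out, Abcc9, Kcnj8 and Rgs4 passed beside Rgs5, at -1.01, -1.18 and -1.25 (edgeR adjusted p = 0.0197, 0.0123 and 0.0284). In that fit 4 of the 10 genes fell, where 0.458% of all genes tested were called lower. The 2 tumours were chosen because earlier results of these data had set them apart. The other channel pair, Kcnj11 and Abcc8, which forms the ATP-sensitive channel of the pancreatic beta cell, was too low to be tested, with a summed level up to 0.574 CPM in SLR14 and 0.387 CPM in PBS tumours.

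**Figure D2:**
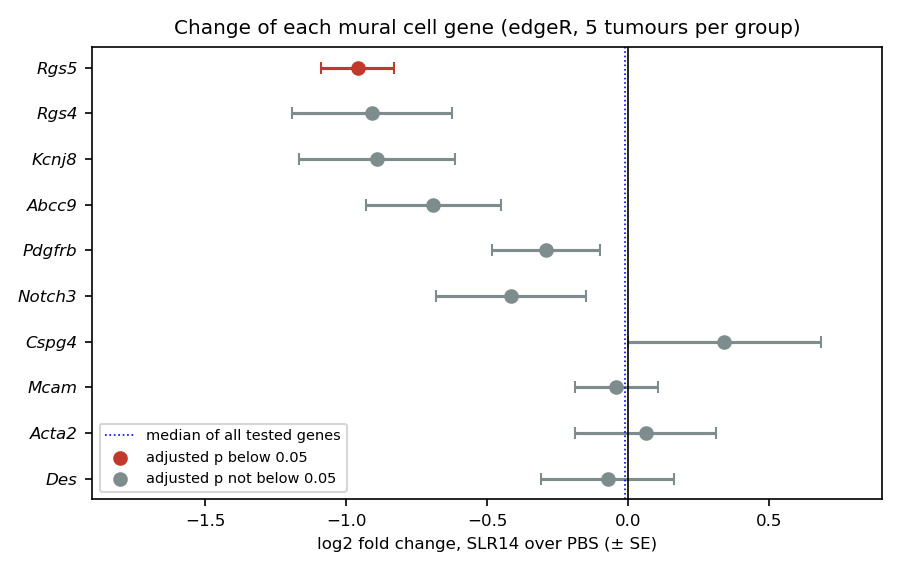
Log2 fold change of SLR14 over PBS for each gene (horizontal axis, ± SE from edgeR, 5 tumours per group); red marks an adjusted p below 0.05 and the dotted line is the median of all tested genes, -0.01. Rgs5 at -0.96 is the single red point, with Rgs4, Kcnj8 and Abcc9 close to it and wider errors.

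Pdgfrb (ENSMUSG00000024620), the receptor that pericytes need for recruitment, had 36.6, 51.6, 36.2, 44.8 and 48.5 CPM in SLR14 tumours, against 53.2, 50.6, 64.3, 68.8 and 29.2 CPM in PBS tumours. PBS 5 was the lowest of all 10, and 3 PBS tumours lay above every SLR14 tumour. The log2 fold change of -0.29 (SE 0.19) did not pass (edgeR adjusted p = 0.603).

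Notch3 (ENSMUSG00000038146), the Notch receptor of mural cells, ranged from 16.0 to 30.1 CPM in SLR14 tumours with a median of 26.1, and from 12.9 to 46.2 CPM in PBS tumours with a median of 34.3. The low value was again PBS 5, and 3 PBS tumours lay above every SLR14 tumour. Its log2 fold change was -0.42 (SE 0.27, edgeR adjusted p = 0.591). Without PBS 5 the log2 fold changes of Pdgfrb and Notch3 were -0.45 and -0.62, still short of the threshold (edgeR adjusted p = 0.116 and 0.111).

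Cspg4 (ENSMUSG00000032911), the NG2 proteoglycan of the pericyte surface, had 11.0, 15.5, 15.4, 12.0 and 27.3 CPM in SLR14 tumours, against 11.0, 11.3, 24.5, 12.8 and 4.88 CPM in PBS tumours. SLR14 5 and PBS 3 stood high and PBS 5 low, and the groups overlapped (log2 fold change 0.34 with SE 0.34, adjusted p = 0.719 in edgeR). Mcam (ENSMUSG00000032135), the adhesion molecule CD146, lay between 46.6 and 56.1 CPM in SLR14 tumours and between 35.4 and 68.5 CPM in PBS tumours, with a log2 fold change of -0.04 (SE 0.15, edgeR adjusted p = 0.928). The range in PBS tumours enclosed that in SLR14 tumours.

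The contractile and cytoskeletal members overlapped between the groups. Acta2 (ENSMUSG00000035783), smooth muscle actin, had 30.9, 17.2, 41.0, 23.4 and 20.0 CPM in SLR14 tumours, against 23.9, 23.9, 41.0, 18.8 and 19.8 CPM in PBS tumours (log2 fold change 0.06 with SE 0.25, adjusted p = 0.936 in edgeR). Des (ENSMUSG00000026208), the intermediate filament desmin, had 85.2, 50.6, 80.7, 118 and 61.1 CPM in SLR14 tumours, against 54.6, 70.4, 116, 69.8 and 106 CPM in PBS tumours (log2 fold change -0.07 with SE 0.24, adjusted p = 0.919 in edgeR). The 14 skeletal muscle genes summed to 218, 9.17, 217, 283 and 129 CPM in SLR14 tumours, against 50.6, 147, 291, 87.6 and 252 CPM in PBS tumours. Des was highest in SLR14 4, PBS 3 and PBS 5, the 3 tumours with the most muscle RNA, and lowest in SLR14 2, the one with the least, where Acta1, skeletal muscle actin, was at 0. The part of muscle in the level of Des was not tested. With the muscle score as a covariate, Rgs5, Rgs4 and Kcnj8 passed (log2 fold changes -0.97, -1.03 and -1.06, edgeR adjusted p = 0.00325, 0.0240 and 0.0375), 3 of 10 where 0.34% of all tested genes were called lower.

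Per kilobase of exon, which allows levels of different genes to be set side by side, Des was highest in both groups and the order of some genes below it differed. In SLR14 tumours Des was highest at 21.1 ± 6.91 CPM per kilobase (SD, n = 5), followed by Mcam at 14.9 ± 1.08, Acta2 at 12.1 ± 4.36, Rgs5 at 9.12 ± 1.81 and Pdgfrb at 7.95 ± 1.27. In PBS tumours Des at 22.2 ± 6.95 CPM per kilobase was followed by Rgs5 at 17.7 ± 1.36, Mcam at 15.4 ± 3.82, Acta2 at 11.6 ± 4.08 and Pdgfrb at 9.71 ± 2.82. Within either group each of these neighbours in the order differed from the next by less than the larger SD of the pair. The lower 5 genes lay between 0.799 and 2.99 CPM per kilobase in SLR14 tumours and between 1.08 and 4.17 in PBS tumours, with Notch3, Kcnj8 and Abcc9 above Cspg4 and Rgs4 in both groups. Notch3 was above Kcnj8 and Cspg4 above Rgs4 in SLR14 tumours, and both pairs had the other order in PBS tumours. Notch3 and Kcnj8 differed by less than the larger SD of the pair in either group.

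Ratios within a tumour do not depend on how libraries are scaled. The log2 ratio of Rgs5 to Pdgfrb (both in CPM) was -0.08, -0.12, -0.23, 0.03 and 0.01 in SLR14 tumours, against 0.46, 0.70, 0.48, 0.24 and 1.39 in PBS tumours. The groups did not overlap, and PBS 5 stood above the other PBS tumours. The log2 ratio of Rgs5 to Pecam1 ran from -0.19 to 0.55 in SLR14 and from 0.50 to 1.27 in PBS tumours, and overlapped through SLR14 2 and PBS 4. The log2 ratio of Rgs5 to Acta2 ran from -0.41 to 1.47 in SLR14 and from 1.13 to 2.11 in PBS tumours and overlapped as well. Of 8 such ratios computed between single genes, the groups did not overlap in 1, that of Rgs5 to Pdgfrb. The log2 ratio of Abcc9 to Pdgfrb was -1.35 ± 0.33 in SLR14 and -0.87 ± 0.15 in PBS tumours (SD, n = 5) and overlapped only through SLR14 2 and PBS 3. The log2 ratio of Kcnj8 to Abcc9, the subunits of 1 channel, was -1.67 ± 0.33 in SLR14 and -1.42 ± 0.52 in PBS tumours and overlapped broadly. These ratios were chosen after the values were seen and carry no test.

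**Figure D3:**
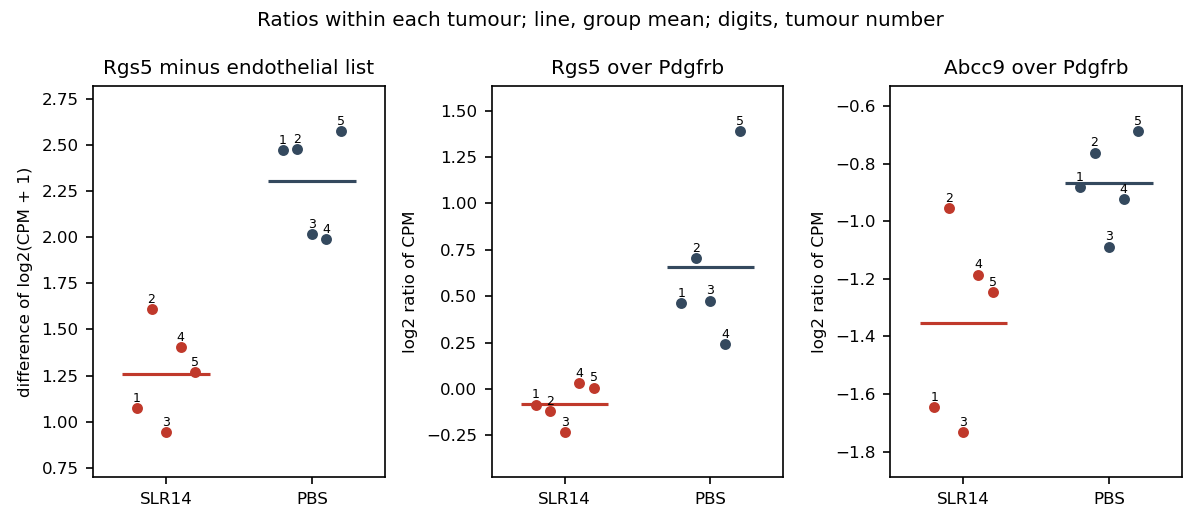
Level of Rgs5 relative to the mean of 18 endothelial genes (difference of log2(CPM + 1)) and log2 CPM ratios of Rgs5 and Abcc9 to Pdgfrb, in each of the 5 SLR14 and 5 PBS tumours (digits, tumour number; line, group mean). The groups do not overlap in the first and second panels, where the Rgs5 means are 1.26 and -0.08 in SLR14 against 2.31 and 0.65 in PBS tumours.

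Endothelial genes, the partners of mural cells, gave no call. All 18 were tested. By edgeR and by DESeq2 0 of them passed, 0 had p under 0.05 before adjustment in edgeR, and the median log2 fold change was -0.01. Pecam1, the adhesion molecule CD31, was at 38.4 CPM in SLR14 and 43.2 CPM in PBS tumours, and Cdh5, the cadherin of endothelial junctions, at 47.9 CPM in SLR14 and 50.6 CPM in PBS tumours. The smallest p values belonged to Eng, Erg and Plvap (log2 fold changes 0.35, -0.44 and 0.26, edgeR adjusted p = 0.513, 0.525 and 0.607). Relative to the mean log2(CPM + 1) of these genes, Rgs5 was at 1.26 ± 0.26 in SLR14 and 2.31 ± 0.28 in PBS tumours (SD, n = 5). The groups did not overlap, which repeats the gap already seen in the CPM of Rgs5. Kcnj8 was at -1.45 ± 0.60 in SLR14 and -0.52 ± 0.49 in PBS tumours on this scale, and Abcc9 at 0.04 ± 0.52 in SLR14 and 0.82 ± 0.29 in PBS tumours, both with overlap. With the endothelial score as a covariate the log2 fold change of Rgs5 was -0.99 (edgeR adjusted p = 0.00336). That score averaged 4.12 in SLR14 and 4.04 in PBS tumours, so adjusting for it could hardly alter a group difference.

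Other pericyte genes, set out in a list without the 10, did not pass. Of 24 listed, 23 were in the table and 21 were tested, of which 0 passed in edgeR or DESeq2. Before adjustment 3 had p under 0.05 in edgeR. Of the 21 log2 fold changes 14 were negative, and the median was -0.26. Higd1b, a mitochondrial protein gene used as a pericyte marker, was at 0.352 CPM in SLR14 and 0.722 CPM in PBS tumours (log2 fold change -1.07 with SE 0.41, adjusted p = 0.351 in edgeR). Gucy1b1, a subunit of the nitric oxide receptor guanylate cyclase, was at 1.99 CPM in SLR14 and 2.93 CPM in PBS tumours (-0.56, SE 0.21, edgeR adjusted p = 0.343). Itga7, a laminin-binding integrin subunit, was at 269 CPM in SLR14 and 212 CPM in PBS tumours (0.34, SE 0.14, edgeR adjusted p = 0.388). Most of the summed level of this list came from Itga7, Enpep and Cd248, and which cells made them was not tested.

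Smooth muscle contractile genes mostly had positive log2 fold changes without passing. Of 17 tested, 0 passed in edgeR or DESeq2 and 4 had p under 0.05 before adjustment. The median log2 fold change was 0.32, and 4 were negative, those of Tagln, Tpm2, Tpm1 and Cald1 (-0.34, -0.28, -0.22 and -0.03). The list summed to 2095 CPM in PBS 5 and to between 2923 and 3221 CPM in the other PBS tumours. The part of PBS 5 in these changes was not tested. Myh11, the smooth muscle myosin heavy chain, was at 8.19 CPM in SLR14 and 4.90 CPM in PBS tumours (log2 fold change 0.75 with SE 0.28, adjusted p = 0.334 in edgeR). Srf, the transcription factor that binds CArG boxes, had a log2 fold change of 0.36 (SE 0.13, edgeR adjusted p = 0.311), and Actn1, an actin crosslinker, one of 0.33 (SE 0.13, edgeR adjusted p = 0.398). Several genes of this list, Flna, Vcl and Cald1 among them, are made by many cell types.

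The ligands and partners of the receptors gave no call either. Among 5 other PDGF ligands and receptors 0 passed in edgeR or DESeq2, and 2 had p under 0.05 before adjustment. Pdgfb, the ligand of Pdgfrb, was at 130 CPM in SLR14 and 104 CPM in PBS tumours (log2 fold change 0.33 with SE 0.13, adjusted p = 0.365 in edgeR). Pdgfa was at 57.3 CPM in SLR14 and 47.5 CPM in PBS tumours (0.27, SE 0.09, edgeR adjusted p = 0.293), and Pdgfd, another ligand of Pdgfrb, averaged 0.748 CPM in SLR14 and 0.499 CPM in PBS tumours (edgeR adjusted p = 0.572). Of 13 other Notch pathway genes 0 passed in edgeR or DESeq2 and 1 had p under 0.05 before adjustment, Jag1, a Notch ligand (log2 fold change 0.29 with SE 0.14, adjusted p = 0.458 in edgeR). Notch2 and Heyl, a Notch target of mural cells, had log2 fold changes of 0.42 and -0.64 (edgeR adjusted p = 0.512 and 0.532). The Notch list summed to 465 CPM in PBS 5 and to between 922 and 1042 CPM in the other PBS tumours.

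Among 5 other tested genes of the R4 subfamily of RGS proteins, to which Rgs5 and Rgs4 belong, 0 passed in edgeR. Rgs18, which is made by platelets and blood cells, was at 1.06 CPM in SLR14 and 2.11 CPM in PBS tumours (log2 fold change -0.97 with SE 0.25, adjusted p = 0.105 in edgeR), and DESeq2 called 1 gene of this list. Rgs1, which is made by lymphocytes, was at 2.99 CPM in SLR14 and 1.41 CPM in PBS tumours (log2 fold change 1.07 with SE 0.40, adjusted p = 0.343 in edgeR), and Rgs2 had a log2 fold change of 0.21 (edgeR adjusted p = 0.645).

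The levels of other cell types differed between tumours too. Fibroblast genes, which share Pdgfrb and Acta2 with mural cells, had negative log2 fold changes for all 11 tested with a median of -0.72. In edgeR 6 of the 11 had p under 0.05 before adjustment, where the share over all tested genes was 10.8%. After adjustment 1 fell, Fap, fibroblast activation protein, at 0.863 CPM in SLR14 and 2.89 CPM in PBS tumours. Its log2 fold change was -1.74 (SE 0.29, edgeR adjusted p = 0.0126, or 0.0742 with the replicate numbers as a block). Lum and Dcn, matrix proteoglycans, had log2 fold changes of -1.49 and -1.34 (edgeR adjusted p = 0.239 and 0.325). The 12 fibroblast genes summed to between 478 and 1569 CPM in SLR14 and between 864 and 3423 CPM in PBS tumours, with Dpt too low to test. SLR14 2 had the least fibroblast RNA and the most Rgs4, Kcnj8, Abcc9 and Pdgfrb of the SLR14 tumours. In the PBS group it was the reverse, since PBS 4 had the most fibroblast RNA and also the most of each of these genes. The part of fibroblasts in the levels of Pdgfrb and Acta2 was not tested.

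The 14 skeletal muscle genes gave 0 calls in edgeR or DESeq2 and 0 at an unadjusted p under 0.05, and Ckm, muscle creatine kinase, ranged from 0.238 to 19.8 CPM in SLR14 and from 3.17 to 28.5 CPM in PBS tumours. Casq1, Myh4 and Myh2, a calcium store protein and 2 fast myosins of muscle, had log2 fold changes of -0.45, 0.71 and -0.85 (edgeR adjusted p = 0.571, 0.715 and 0.759). Schwann and glial genes, which could add to Cspg4, summed to between 1.11 and 2.02 CPM in SLR14 and between 1.24 and 2.01 CPM in PBS tumours, with 0 of 2 tested genes passing in edgeR or DESeq2 and 0 at an unadjusted p under 0.05. S100b, a glial calcium-binding protein, had a log2 fold change of -0.24 (edgeR adjusted p = 0.886). Adipocyte genes were too low to test. Of 5 erythroid genes 0 passed in edgeR or DESeq2 and 1, Hbb-bs, had p under 0.05 before adjustment, with a summed level up to 89.0 CPM in SLR14 and 160 CPM in PBS tumours, highest in PBS 5. The globin genes Hba-a1 and Hbb-bt, which have near-identical copies and are therefore uncertain, had log2 fold changes of -0.70 and -0.43 (edgeR adjusted p = 0.591 and 0.805). Of 7 leukocyte genes 0 passed in edgeR, 3 had p under 0.05 before adjustment and 1 passed in DESeq2. These 3 were Cd3e, a T cell receptor subunit, and the integrins Itgax and Itgam of myeloid cells, with log2 fold changes of 2.57, -0.72 and 0.41 (edgeR adjusted p = 0.0791, 0.370 and 0.384). The epithelial keratins Krt8 and Krt18 and the kidney transcription factor Pax8 were present in all tumours (Krt8 at 1606 CPM in SLR14 and 1415 CPM in PBS tumours). Of the 7 epithelial genes tested 1 fell, Epcam, an epithelial adhesion molecule, at 0.617 CPM in SLR14 and 3.45 CPM in PBS tumours (log2 fold change -2.42 with SE 0.49, adjusted p = 0.0324 in edgeR). Cdh1, the cadherin of epithelial junctions, was at 157 CPM in SLR14 and 183 CPM in PBS tumours (edgeR adjusted p = 0.576). Epcam lost its call when SLR14 1, 2, 3 or 4 or PBS 1, 3 or 4 was left out (edgeR adjusted p 0.0547 to 0.0936).

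The 10 genes did not vary as 1 set from tumour to tumour. Pearson's r of the deviations from the group mean of log2(CPM + 1) was taken over the 10 tumours as a description. All points share the libraries, among them PBS 5. Pdgfrb, Notch3, Cspg4 and Mcam varied together, with r between 0.72 and 0.90 for their 6 pairs. Each of them was at its lowest PBS level in PBS 5, as was the summed level of the endothelial genes (321 CPM). The part of PBS 5 in these r was not tested. Rgs5 varied most closely with Abcc9 (r = 0.81), and Abcc9 also with Pdgfrb (r = 0.85). Acta2 ran against Kcnj8 (r = -0.85) and Des against Rgs4 (r = -0.84). Of the 45 pairs 26 were positive and the median r was 0.27. By the same measure the tested genes most like Rgs5, among 12067 with a mean of at least 1 CPM, were Tagln2, Lta4h, Elovl5, Cd81 and Qsox1 (r 0.91 to 0.97), and those most like Acta2 were Lmnb2, Ccnd1, Myl9, Gpc4 and Mybbp1a (r 0.89 to 0.94). Both sets are the extremes of 12067 values over 10 tumours and were not tested.

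**Figure D4:**
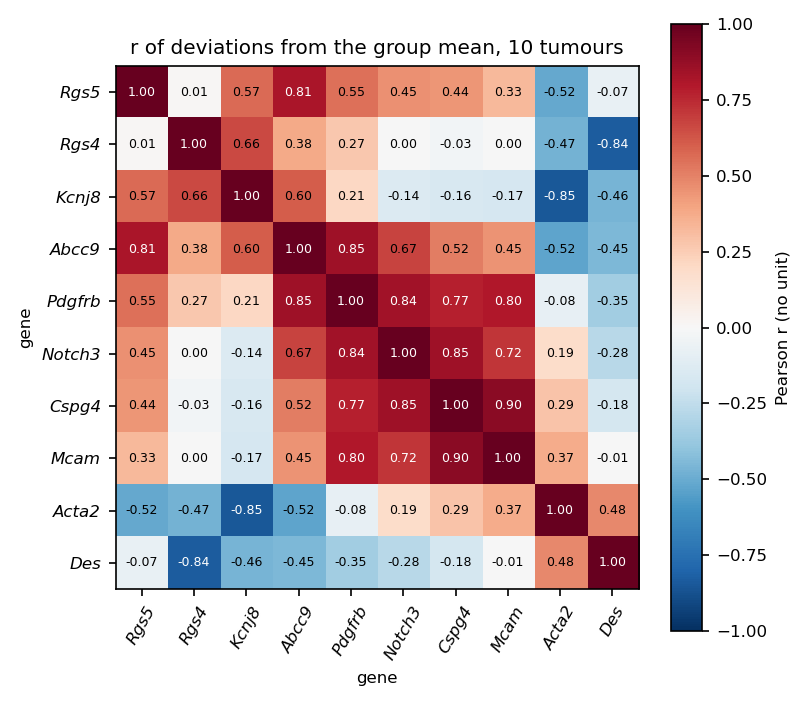
Pearson's r between each pair of the 10 genes, from deviations of log2(CPM + 1) from the group mean over 10 tumours (red positive, blue negative; no unit). A block of high values joins Pdgfrb, Notch3, Cspg4 and Mcam, while Acta2 and Kcnj8 stand at -0.85.

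**Figure D5:**
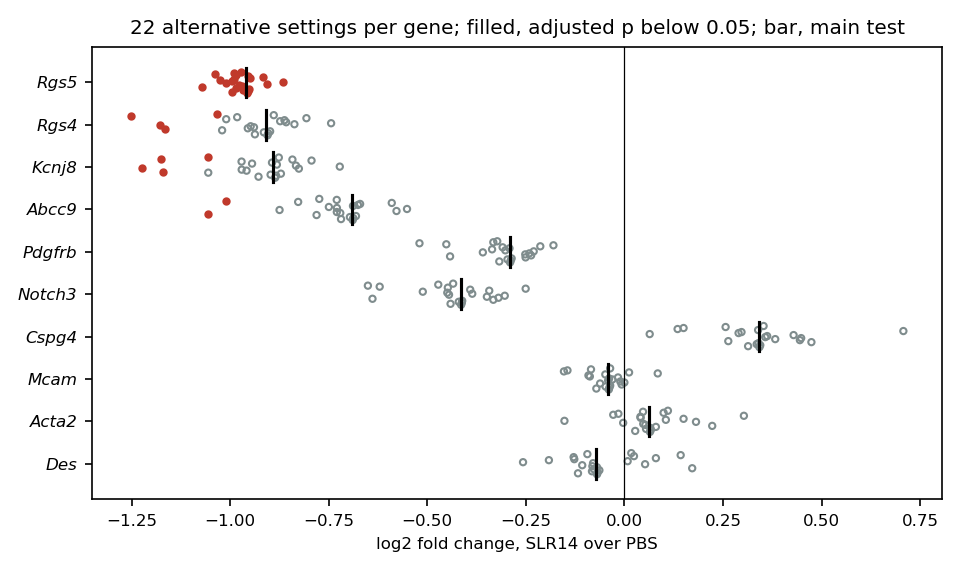
Log2 fold change of SLR14 over PBS (horizontal axis) for each gene under 22 alternative settings (points; filled where the adjusted p was below 0.05) and in the main test (black bar). All Rgs5 points are filled and lie between -1.07 and -0.87, and 4 Rgs4, 4 Kcnj8 and 2 Abcc9 points are filled.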

How the data were processed

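RNA was sequenced from 10 RENCA tumours, 5 SLR14 and 5 PBS, grouped by sample title. Per the labels' protocols, ribosomal RNA was depleted and messenger RNA enriched on oligo(dT) beads. The submitters' processing notes name Trim Galore 0.6.7, STAR, DESeq2 1.36.0 and build mm39. For the counting program, strand setting and annotation: not given in the sources used here. Abcc9, Notch3, Des and Mcam have exons that overlap a gene on the opposite strand in GENCODE M21, so their counts may hold reads of both. The authors deposited raw counts and a normalized signal, which is the count divided by 1 factor per sample. Depth was 17931895 to 39842608 counts per tumour. Rows with no symbol, 74 with 0.0295% of counts, were kept since each has an identifier.

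Counts were filtered with filterByExpr (minimum count 10), scaled by TMM and tested with edgeR 4.0.16 (glmQLFit, glmQLFTest; R 4.3.3) for SLR14 against PBS without covariate, with Benjamini-Hochberg adjustment at 0.05. Standard errors are the absolute log2 fold change over the square root of F. The code was tested on simulated data. Levels per kilobase use exon lengths of GENCODE M21 (GRCm38), which is not the submitters' build. Alternatives used DESeq2 1.42.0, limma 3.58.1, other factors and filters, covariates and fewer tumours. Scores are the mean log2(CPM + 1) of a list. No 2 tumours of a group agreed within sampling noise (smallest chi-square per degree of freedom 8.20 over genes with a summed count above 20, 20 pairs), and each counts as 1 sample. PBS 5 stood apart, with values of 103 to 147 in its pairs against at most 42.0 in the others. The named genes are the 10 members, from each list the genes past the threshold or else the 3 with the smallest p, the 5 genes most like Rgs5 and Acta2, and Pecam1, Cdh5, Ckm and Acta1; others were named after their values were seen, and 1 gene under this rule is not reported here. Members and lists were chosen with earlier results of these data known.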

Additional observations from a re-analysis of the deposited data

Results flagged for a closer look

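In groups of 5, a sample is singled out where its gap to the nearest other, as a share of the group's range, exceeds Dixon's critical value. Chance does this in about 1 of 20 groups, and 20 were examined here. Cspg4 in SLR14 5 was at 27.3 CPM, with the other SLR14 tumours at 11.0 to 15.5 CPM. Acta2 in PBS 3 was at 41.0 CPM, with the other PBS tumours at 18.8 to 23.9 CPM.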

How the results depend on the processing

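Rgs5 fell in all 22 alternatives (edgeR, DESeq2 or limma adjusted p at most 0.0171), with log2 fold changes of -1.03 to -0.87 where 1 tumour was left out. Of the 10 genes 1 passed in the main test, where 0.29% of all tested genes were called lower. With limma quality weights 4 passed (0.907% of all tested genes lower), and 4 without PBS 5 and SLR14 2 (0.458%). The muscle covariate gave 3 (0.34%). Where 1 tumour was left out 1 to 3 passed, with 3 in the fit without SLR14 2 (0.264%). The replicate numbers are not stated to pair mice, and 0 of 5 SLR14 tumours correlated best with the PBS tumour of the same number (r of same-numbered deviations -0.25 to 0.14). With the replicate block 78 genes passed, 51 higher and 27 lower, against 153, 107 and 46 in the main test, and Rgs5 stayed at -0.98 (edgeR adjusted p = 0.0171). DESeq2 called 407, 251 and 156, and quality weights 349, 205 and 144. Leave-one-out gave 69 to 194 calls, 44 to 123 higher and 25 to 71 lower. Lower calls were 74 without PBS 5 and SLR14 2. Of the listed genes outside the 10, 2 passed, 4 in DESeq2, 1 with the replicate block and 1 without PBS 5 and SLR14 2, and 1 to 2 where 1 tumour was left out. The fold change of Des turned positive with quality weights (0.17), without PBS 5 and SLR14 2 (0.14), with the muscle covariate (0.017) and in the leave-one-out range (-0.26 to 0.080), and those of Acta2 (-0.15 to 0.30) and Mcam (-0.15 to 0.085) crossed 0 in theirs. None of these passed. The cause was not tested. With log2(CPM + 0.25) the 10 levels relative to endothelium moved by less than 1 SD of the PBS tumours. Depth limits Rgs4 most, with as few as 24 reads in a tumour.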
